A study of Mus musculus with 8 samples.

Results

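The genes described here encode the pore-forming and auxiliary subunits of potassium, sodium, calcium, pacemaker and chloride channels. They were chosen by symbol alone, as every gene named by a single symbol that begins with Kcn, Scn and a digit, Cacn, Hcn and a digit, or Clcn. That gave 96 genes, represented by 141 probes, of 13661 genes on the array. Members of the cardiac set that carried no probe with a single symbol here, among them Kcnd2, Hcn4, Cacnb2 and the sodium channel beta subunits, were not analysed here.

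Messenger RNA of the whole heart was compared between C57Bl/6 mice of 8 to 10 weeks with a permanent infarct, made by tying off a branch of the left coronary artery, and mice given the same operation with the suture left untied (sham control). Each group had 4 hearts, each on its own spotted array of 70-mer oligonucleotides, and nothing else differed between the groups per the labels. Heart RNA was labelled red and a pooled mouse reference green on all 8 arrays. How long after surgery the hearts were taken is not stated in the labels.

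Each heartbeat is an electrical event made by ion channels. Sodium channels give the fast upstroke of the action potential, L-type calcium channels carry the inward current that starts contraction, and potassium channels of several families bring the cell back to rest. Pore-forming alpha subunits make the conducting path, while auxiliary subunits set how much channel reaches the membrane and how it opens. Remodelling of potassium and calcium currents after infarction is a well-known theme of heart failure research.

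All levels below are log2 signals set against the median spot of the same printed block on the same array. Only spots with a value entered that median, so a level of 0 is that of the median spot with a value. Absent values ran from 8781 on sham replicate 1 to 13896 on sham replicate 4. The spot at 0 therefore need not be equally bright on every array. Each block of 700 rows had a median of 0, and within all 384 combinations of block and array the deposited values became whole numbers, within 0.001, after multiplication by 1 constant. The values are therefore read as the signal of 1 channel, taken here to be the heart's, and not as a ratio to the reference. A fold change is infarcted minus sham control on this log2 scale, given with its standard error (SE). Levels are compared between groups for the same gene only, since probes differ in how well they hybridise.

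Of the 96 channel genes, 61 had a value on at least 3 of 4 arrays in each group and were tested. Another 24 had some values but too few, and 11 had none on any array. The latter were Cacng1, Kcna2, Kcnd1, Kcng3, Kcnh5, Kcnj2, Kcnk10, Kcnmb2, Kcnq5, Kcns3 and Kcnt1. The share tested, 63.5%, was close to the 62% of all 29082 features (a feature is a named gene or a probe without a single symbol). Nearly all of the untested genes were dim where they were seen at all. Their 55 values had a median of -2.35, and 54 of them lay below 0. Between 58 and 75 of the 96 genes had a value on a sham array and between 62 and 69 on an infarcted array. Sham replicates 2 and 4 held the fewest, with 58 and 59, and the lowest value of any spot was -2.80 on sham replicate 4 against -3.27 to -3.83 on the other arrays. For genes near that floor, a missing value on sham replicate 4 is not evidence of a lower level there.

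No channel gene differed between infarcted and sham hearts after adjustment. With limma and Benjamini-Hochberg adjustment over all 18044 features, 0 of 61 channel genes had an adjusted p under 0.05, where 0.549% of all features did. Without adjustment 7 of 61 (11.5%) had p under 0.05, close to the 12.3% of all features. Of these 7, the auxiliary subunits Kcne1 and Kcnmb1, the calcium channel Cacna1h and the chloride channel Clcn1 had negative fold changes, and Scn7a, Kcne4 and Clcn4 positive ones. The values of the groups did not overlap for 6 of the 61 genes. In 2 of them (3.28%) the infarcted values were all higher, against 2.62% of all features, and in 4 (6.56%) they were all lower, against 6.27%. The shares among channel genes were thus near those of the array as a whole. The smallest adjusted p of any channel gene was 0.14. Since each heart was on 1 array, the spread behind these p-values is that of hearts and arrays combined.

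These results do not show that channel transcripts were equal in the groups. The 95% interval of the fold change contained 0 for 54 of 61 genes. It lay wholly between -1 and 1, which is within 2-fold either way, for 30 of them. The interval reached 0.75 to either side of the estimate in the median channel gene and 0.68 over all features. In whole hearts, fewer cells of a type and less RNA per cell cannot be told apart.

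Of 61 genes, 45 (73.8%) had a negative fold change, with a median of -0.15, beside 57.5% and a median of -0.08 over all features. After quantile normalization, which gives all arrays the same distribution of signals, 41 of 61 were negative with a median of -0.14. Over all features 8981 of 18044 were then negative, with a median of 0.00. Cyclic loess left 40 of 61 negative with a median of -0.06, beside 8988 of 18044 features and a median of 0.00. The median also moved with single arrays, to -0.04 without sham replicate 3 (all features -0.02) and to -0.10 without sham replicate 1 (all features 0.00). In the other direction it was -0.20 without sham replicate 2 (all features -0.12) and -0.19 without infarcted replicate 1 (all features -0.10). These counts are descriptions of genes measured on the same 8 arrays and were not tested as a set. Only 3 genes (4.92%) had a fold change beyond 1 in either direction, beside 6.55% of all features.

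**Figure D1:**
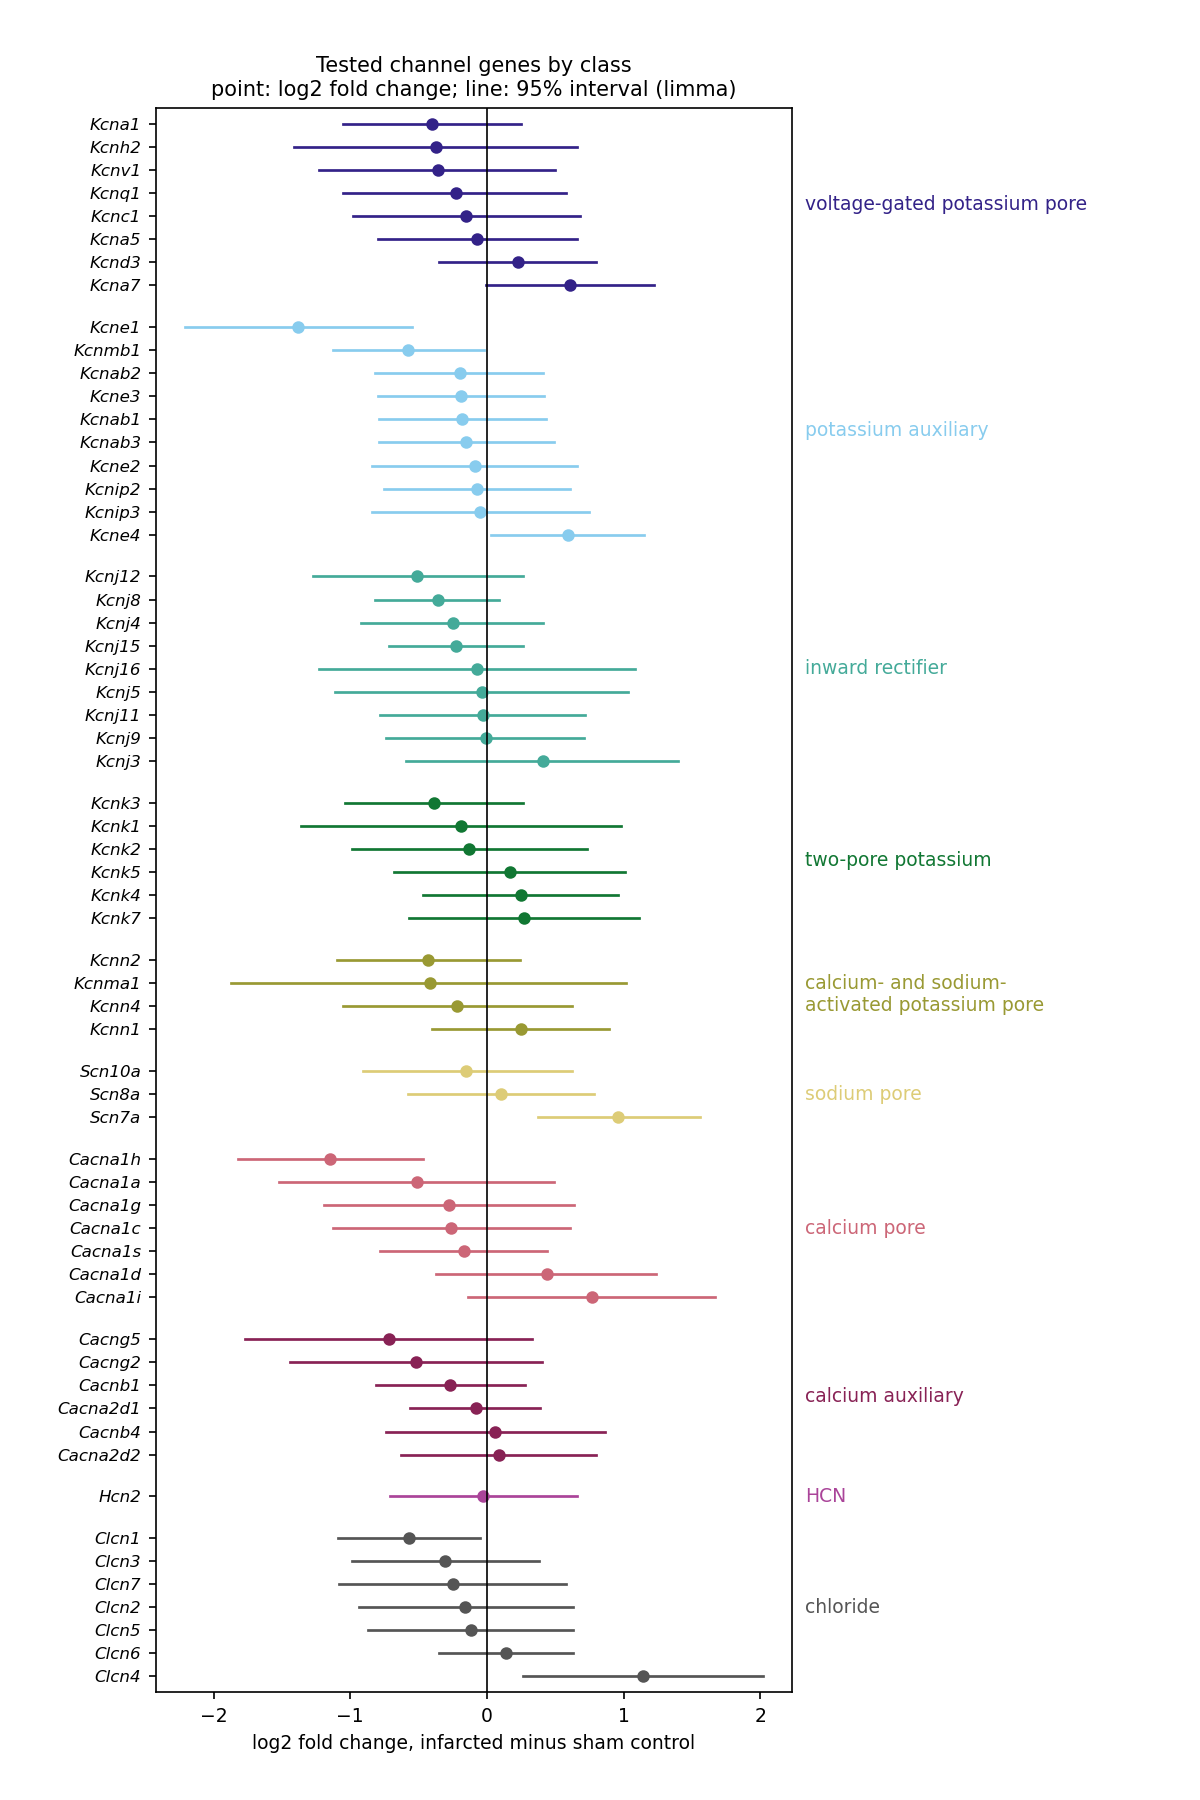
Log2 fold change, infarcted minus sham control (horizontal axis), of the 61 tested channel genes, grouped and coloured by class. Points are the estimates and lines the 95% intervals from limma; the intervals of 54 genes contain 0, and the estimates run from -1.38 for Kcne1 to 1.14 for Clcn4.

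Voltage-gated potassium channel pores repolarise the cell. Of 24 such genes 8 were tested, 0 were called, 2 had positive and 6 negative fold changes, and the median was -0.19. Kcna5, the pore of the ultrarapid delayed rectifier, had levels of 1.58, 0.72, 0.35 and 0.52 in the 4 sham hearts and 1.25, 0.83, 0.55 and 0.26 in the infarcted hearts. The groups covered nearly the same range, and its fold change was -0.07 ± 0.33 (SE; 95% interval -0.80 to 0.66). Kcnh2, the pore of the rapid delayed rectifier, ranged from 0.10 to 2.59 in sham hearts and only from 0.75 to 1.33 in infarcted hearts. Its fold change of -0.37 ± 0.46 became 0.04 without sham replicate 3, the highest value.

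Kcnq1, the pore of the slow delayed rectifier, stood at 1.38, 0.90 and 0.29 on 3 sham arrays and at 1.21, 0.78, 0.40 and 0.09 on the infarcted arrays, with overlap and a fold change of -0.23 ± 0.36. Kcnd3, a pore of the transient outward current, was dim in both groups, at -1.74 ± 0.39 in sham and -1.51 ± 0.25 in infarcted hearts (SD, n = 4 each). Its fold change was 0.23 ± 0.26. Kcna4, the pore of the slow transient outward current, had a value on 1 sham array (-2.50) and on 3 infarcted arrays (-2.43, -1.96 and -1.96), and was not tested.

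The member of this class with the smallest p was Kcna7, a pore known from skeletal muscle and heart, at -1.12, -0.57, -0.71 and -1.53 in sham and 0.07, -0.44, -0.48 and -0.64 in infarcted hearts. The groups just overlapped, and the fold change was 0.61 ± 0.28 (limma adjusted p = 0.416). Its probe with a value on every array gave 1.05 ± 0.42 (limma adjusted p = 0.339 over 20561 probes), and the other probe 0.22 ± 0.27. Kcna1, a fast-activating pore best known from nerve, had -0.40 ± 0.29.

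Auxiliary potassium channel subunits made up 13 of the channel genes. Of these 10 were tested and 0 were called; 3 (30%) had an unadjusted p under 0.05, beside 12.3% of all features, a difference in shares that was not tested. Fold changes were negative for 9 of the 10 (7 after loess), and the median was -0.16. Kcne1, the small membrane protein that joins Kcnq1 to form the slow delayed rectifier, stood at 0.46, 1.12, -0.53 and -0.46 in sham hearts and at -1.34, -0.85, -1.38 and -1.35 in infarcted hearts. All 4 infarcted values lay below all 4 sham values. The fold change was -1.38 ± 0.37 (2.60-fold lower; unadjusted p = 0.00416, limma adjusted p = 0.15), and it ran from -1.60 to -1.06 when 1 array was left out.

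Part of that size came from which probe had a value on which array. The probe of Kcne1 present on all arrays gave 0.46, 1.12, 0.89 and -0.46 in sham and -0.13, -0.85, -0.09 and -0.59 in infarcted hearts. On that probe alone the groups overlapped and the fold change was -0.92 ± 0.36 (adjusted p = 0.321). The other, dimmer probe had values on 1 sham and 3 infarcted arrays, between -2.67 and -1.94, and so lowered the infarcted mean more than the sham mean.

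Kcne4, an inhibitory partner of Kcnq1, had -1.33, -1.23, -2.14 and -1.50 in sham and -1.16, -0.94, -0.75 and -0.99 in infarcted hearts. The infarcted values were all higher, by a fold change of 0.59 ± 0.25 (unadjusted p = 0.0419, adjusted p = 0.381). Kcnmb1, the beta subunit of the large-conductance calcium-activated channel of smooth muscle, had -1.79, -2.08, -1.96 and -1.37 in sham and -2.04, -2.69, -2.55 and -2.23 in infarcted hearts. Its groups overlapped at sham replicate 2 and infarcted replicate 1, with a fold change of -0.58 ± 0.25 (unadjusted p = 0.0432, adjusted p = 0.385). Both genes were measured by 1 probe, below the median spot in every heart. Of the 6 tested smooth muscle and pericyte markers 3 had negative and 3 positive fold changes, from -0.73 for Acta2 to 0.70 for Cnn1, and 0 passed. Their mean level per array, over 5 complete markers, was 1.73 to 2.31 in sham and 1.64 to 2.16 in infarcted hearts. The part of these cells in the Kcnmb1 values was not tested.

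Kcnip2, the cytoplasmic subunit that Kcnd channels need for the fast transient outward current, stood at 2.73, 2.94, 2.67 and 2.66 in sham hearts. The infarcted hearts spread on both sides of that narrow range, at 3.24, 3.16, 2.25 and 2.07. The fold change was -0.07 ± 0.30 (95% interval -0.75 to 0.61) and turned to 0.16 after quantile normalization and 0.17 after loess. The SD was 0.13 in sham and 0.61 in infarcted hearts; the difference in spread was not tested.

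**Figure D2:**
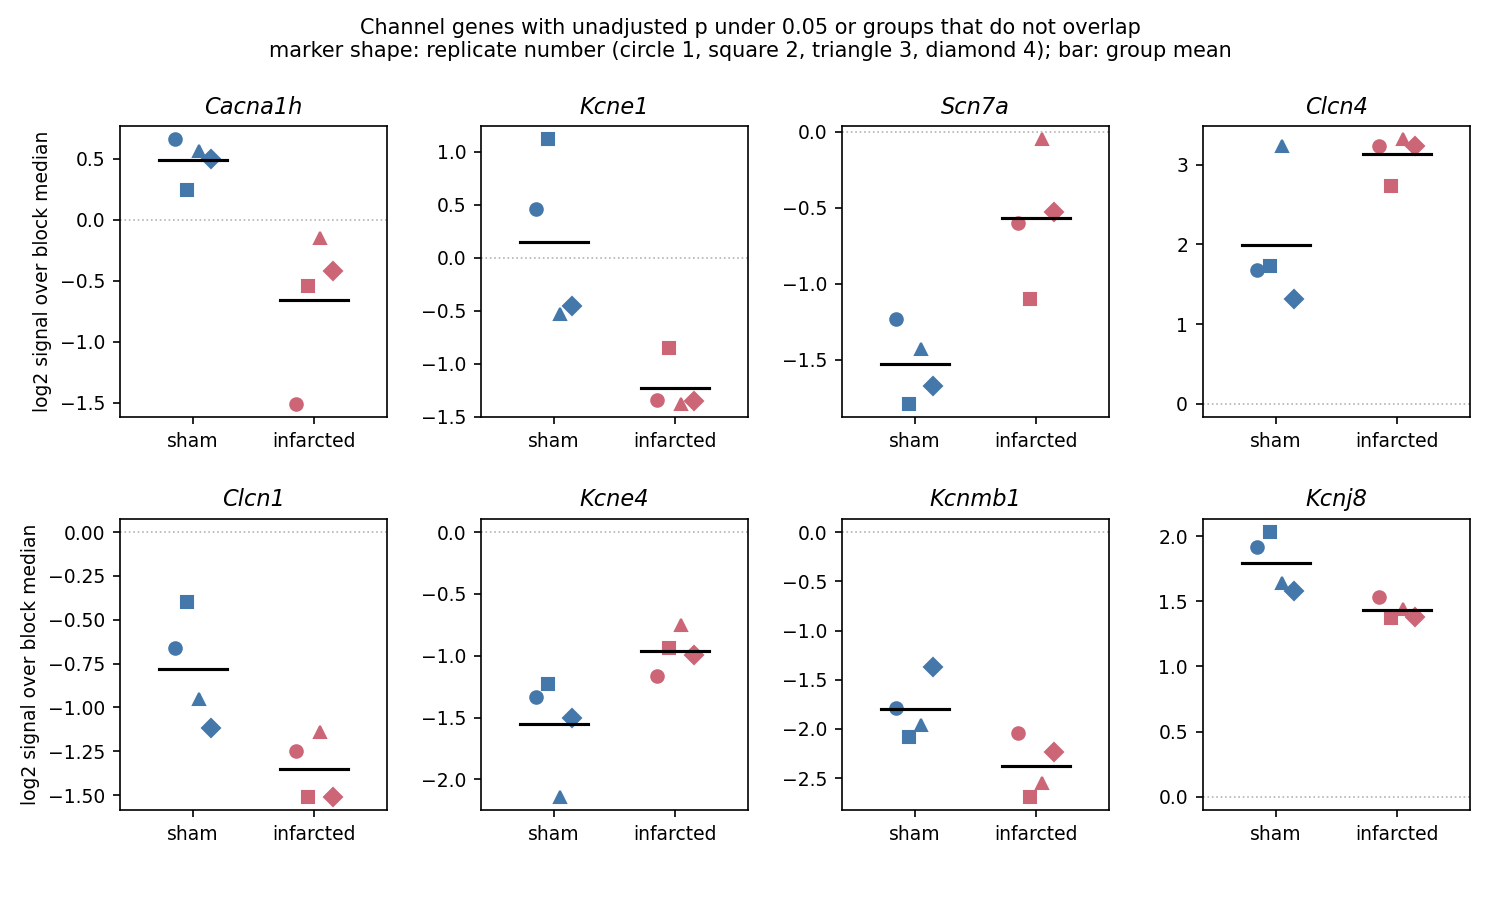
Log2 signal over the block median (vertical axis) on the 4 sham control and 4 infarcted arrays, for the 8 tested channel genes with unadjusted p under 0.05 or with groups that did not overlap; bars are group means. The groups do not overlap for Cacna1h, Kcne1, Clcn1, Kcnj8, Scn7a and Kcne4, and no gene passed after adjustment.

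Inward rectifiers hold the resting potential and, as ATP-sensitive channels, link it to metabolism. Of 13 genes 9 were tested, 0 were called, 8 had negative fold changes and the median was -0.07; after quantile normalization 6 were negative and the median was -0.14. Kcnj8, the pore of the ATP-sensitive channel of vascular cells, had 1.92, 2.03, 1.64 and 1.58 in sham and 1.53, 1.37, 1.44 and 1.38 in infarcted hearts. The infarcted values were tightly grouped and just below the lowest sham value. The fold change was small, -0.36 ± 0.20 (1.29-fold lower; adjusted p = 0.527), and lay between -0.43 and -0.28 with any 1 array left out.

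Kcnj11, the pore of the ATP-sensitive channel of heart muscle, had 3.08, 2.60, 1.70 and 2.18 in sham and 2.81, 2.60, 2.08 and 1.95 in infarcted hearts. Its fold change was -0.03 ± 0.34, turning to 0.14 after quantile normalization or loess and 0.02 with equal array spread. Kcnj12, a subunit of the strong inward rectifier, had 1.53, 0.27, 0.93 and 0.22 in sham and 0.77, 0.34, -0.07 and -0.12 in infarcted hearts, with overlap and a fold change of -0.51 ± 0.34 (adjusted p = 0.615). Kcnj2, the main subunit of that current in ventricle, had a probe with no value on any array. The pair that forms the acetylcholine-activated channel of atrium and sinus node, Kcnj3 and Kcnj5, had fold changes of 0.41 ± 0.45 and -0.04 ± 0.48. For Kcnj5 the sham values alone ran from -2.52 to -0.37. Kcnj14 had only 2 values, -3.22 on sham replicate 1 and 0.74 on infarcted replicate 1.

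Two-pore potassium channels carry background current. Of 7 genes 6 were tested, 0 were called, 3 had positive and 3 negative fold changes, and the median was 0.02 (0.10 after quantile normalization and 0.16 after loess). Kcnk3, an acid-sensitive background channel of heart muscle, stood at 3.69, 3.83, 3.58 and 2.77 in sham and 3.31, 3.40, 2.94 and 2.68 in infarcted hearts. Its fold change of -0.39 ± 0.29 was -0.05 after quantile normalization. Kcnk5, another pH-sensitive background channel, ran from 3.73 to 5.48 in sham and from 4.27 to 4.98 in infarcted hearts, so that the infarcted values lay inside the sham range. Its fold change went from 0.17 ± 0.38 to 0.82 after quantile normalization or loess, without passing (quantile adjusted p = 0.469).

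The brightest 1% of spots began at 5.65 to 6.31 on sham arrays and at 5.05 to 5.24 on infarcted arrays before quantile normalization or loess. Kcnk2, a stretch-activated background channel, was dim, with -1.44, -2.94, -1.75 and -2.15 in sham and -1.82, -2.53 and -2.24 on 3 infarcted arrays (fold change -0.13 ± 0.38; 0.02 after loess). Kcnk4, a related mechanosensitive channel, had 0.25 ± 0.31.

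Potassium channels opened by calcium or sodium had 4 of 7 genes tested and 0 called, with 1 positive and 3 negative fold changes and a median of -0.32. Kcnn2, a small-conductance channel of atrium and pacemaker cells, had 0.27, 0.00, -0.10 and -0.37 in sham and 0.00, -0.21, -0.46 and -1.25 in infarcted hearts. The groups overlapped, with a fold change of -0.43 ± 0.30 (adjusted p = 0.624), and of -0.18 at the least when 1 array was left out. Kcnn1, of the same family, had 0.25 ± 0.29.

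Sodium channels were represented by 4 pore genes, and 3 were tested. Scn7a, an atypical family member known as a sensor of extracellular sodium, had -1.23, -1.79, -1.43 and -1.67 in sham and -0.60, -1.10, -0.05 and -0.53 in infarcted hearts. Every infarcted heart lay above every sham heart. The fold change was 0.96 ± 0.27 (1.95-fold higher; 95% interval 0.37 to 1.56; unadjusted p = 0.00493, limma adjusted p = 0.163), between 0.79 and 1.14 with any 1 array left out and 0.97 after quantile normalization. It rested on 1 probe whose mean level was below the median spot in both groups. Scn8a, a pore best known from neurons, had 0.10 ± 0.30, and Scn10a, of sensory neurons, -0.15 ± 0.33 from 3 values in each group.

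Cell type markers were read from the same fit. Of 6 tested macrophage markers 5 had positive fold changes, with a median of 0.96, and 0 passed. Their mean level per array was -0.19 to 0.18 in sham and 0.60 to 1.10 in infarcted hearts. For nerve markers 5 of 6 were negative, with a median of -0.32 and mean levels of 0.07 to 1.05 in sham and -0.17 to 0.80 in infarcted hearts. The nerve markers Th, Dbh and Prph had values on at most 2 arrays each. For fibroblasts 6 of 8 were negative (median -0.12, and 0.06 after quantile normalization). Their mean levels were 2.20 to 2.60 in sham and 2.02 to 2.51 in infarcted hearts. The largest fibroblast fold change was positive, 1.76 ± 0.54 for Postn (limma adjusted p = 0.209, groups overlapping), and the most negative was -1.27 ± 0.64 for Col1a1. Endothelial markers were positive for 3 of 5 (median 0.03) and glial markers for 1 of 2. The part of these cells in the channel values was not tested.

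Calcium channel pores had 7 of 10 genes tested, 0 called, 2 positive and 5 negative fold changes, and a median of -0.26. The smallest p of all channel genes belonged to Cacna1h, a T-type channel that is known to be prominent in the fetal heart. Its levels were 0.66, 0.24, 0.56 and 0.50 in sham hearts and -1.51, -0.54, -0.15 and -0.42 in infarcted hearts. The sham hearts all lay above the median spot and the infarcted hearts all below it. The fold change was -1.15 ± 0.30 (2.21-fold lower; 95% interval -1.82 to -0.47; unadjusted p = 0.00364, limma adjusted p = 0.14). It was -0.86 to -1.31 with 1 array left out, -1.14 after quantile normalization and -1.17 after loess, and the gene had 1 probe with signals of 126 to 1151 scanner units.

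Cacna1g, the other T-type channel of the adult pacemaker tissue, had -1.90, -0.41, -0.35 and -0.15 in sham and -0.99, -0.94, -0.41 and -1.57 in infarcted hearts, a fold change of -0.28 ± 0.41. The low value of sham replicate 1 came from a second probe seen on that array alone, at -3.24. The probe present on all arrays gave -0.61 ± 0.27 (unadjusted p = 0.0467, adjusted p = 0.392). Cacna1i, the third T-type gene, had 0.98, 0.32, 1.01 and -0.22 in sham and 0.57, 0.77, 1.94 and 1.87 in infarcted hearts, with overlap and a positive fold change of 0.77 ± 0.41 (adjusted p = 0.494). The 3 T-type genes thus did not share a sign.

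Cacna1c, the L-type pore that triggers contraction in ventricle, had 1.41, 0.56 and 0.91 on 3 sham arrays and 0.50, 1.65, 0.30 and 0.36 on the infarcted arrays. The groups overlapped and the fold change was -0.26 ± 0.38 (95% interval -1.13 to 0.61). Cacna1d, the L-type pore of pacemaker cells, had a gene value of 0.44 ± 0.36, but its probe present on all arrays gave -0.24 ± 0.34. The other 3 probes, each dim, were seen on 2 or 3 arrays apiece and mostly on sham arrays.

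Auxiliary calcium channel subunits had 6 of 9 genes tested, 0 called, 2 positive and 4 negative fold changes, and a median of -0.17. Cacna2d1, the extracellular subunit that raises L-type current in heart, was among the steadiest genes, at 2.61, 2.65, 3.07 and 2.50 in sham and 2.65, 2.78, 2.54 and 2.52 in infarcted hearts. Its fold change was -0.08 ± 0.21 (95% interval -0.56 to 0.39), and 0.12 after quantile normalization and 0.15 after loess. Cacng5 and Cacng2, of the gamma family known from brain, had -0.72 ± 0.46 and -0.52 ± 0.41, each with 3 sham values and overlapping groups.

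Of the pacemaker channels that open on hyperpolarisation, 2 genes were on the array with a single symbol. Hcn2, present in ventricle and conduction tissue, had -0.40, 0.30, 0.72 and 0.10 in sham and 0.73, 0.08, 0.10 and -0.29 in infarcted hearts, with a fold change of -0.03 ± 0.31. The groups spanned almost the same range. Hcn3 had 1 value, -2.89 on sham replicate 1, and was not tested.

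**Figure D3:**
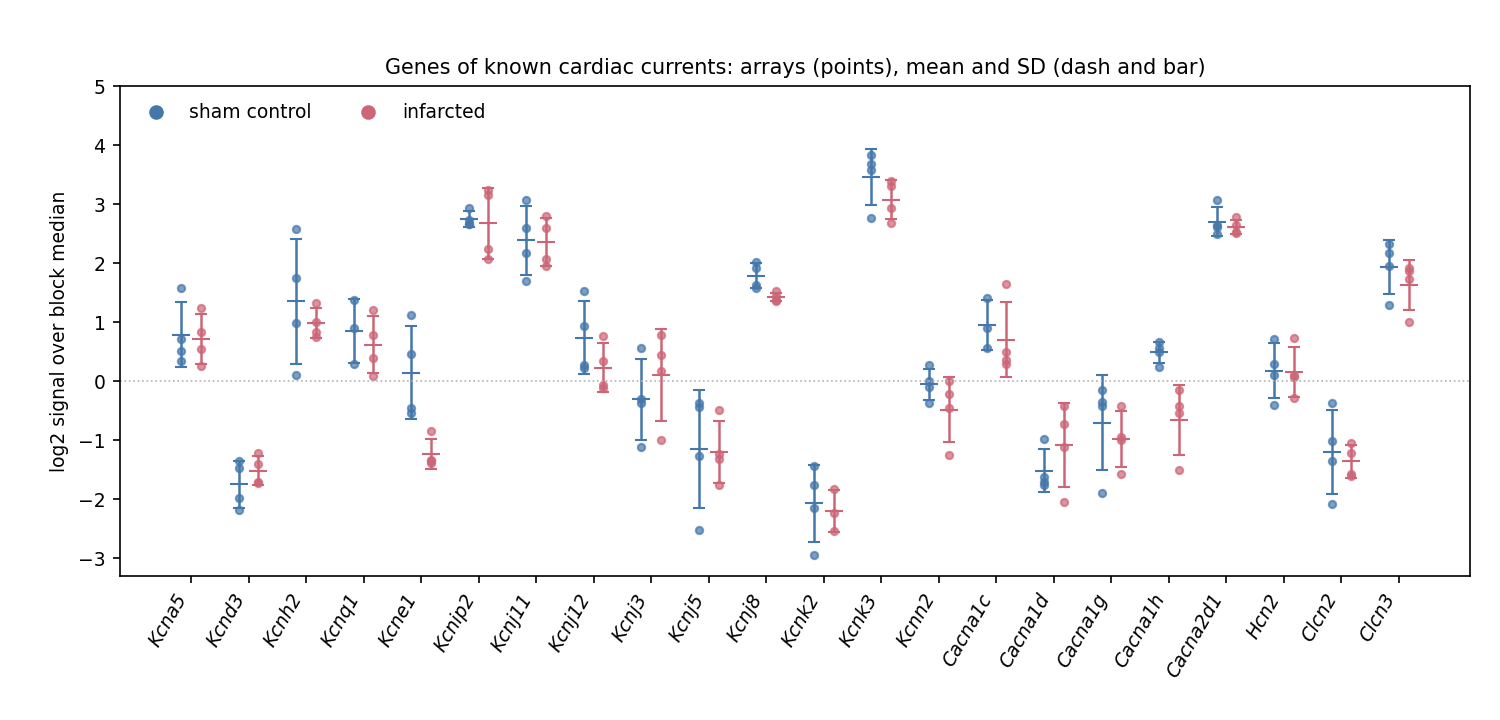
Log2 signal over the block median (vertical axis) of the 22 tested genes of known cardiac currents, by gene (horizontal axis) and group. Points are single arrays, dashes means and bars the SD. Fold changes were positive for 3 genes and negative for 19, where 57.5% of all features were negative. After loess Cacna2d1, Kcnip2, Kcnj11 and Kcnk2 turned positive. The groups overlapped for all but Kcne1, Kcnj8 and Cacna1h, each lower in infarcted hearts, as were 6.27% of all features. The 22 genes were not tested as a set.

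Chloride channels and exchangers of the Clcn family were the 1 larger class in which all genes were tested. Of 7 genes 0 were called, 2 had positive and 5 negative fold changes, and the median was -0.16. Clcn3, an endosomal exchanger, stood at 1.95, 2.32, 2.18 and 1.29 in sham and 1.00, 1.87, 1.73 and 1.92 in infarcted hearts, with a fold change of -0.31 ± 0.31. Clcn2, a widely expressed plasma membrane channel, had -0.16 ± 0.35, and 0.12 without sham replicate 1. The other 2 leading members, Clcn1 and Clcn4, turned on their probes.

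Clcn1, the chloride channel that sets the resting potential of skeletal muscle, had 2 probes, each with a value on every array. The probe numbered 25386 had -0.43, 0.11, -0.20 and -0.77 in sham and -1.40, -2.05, -2.03 and -1.65 in infarcted hearts, all infarcted values below all sham values. Tested alone it changed by -1.46 ± 0.27 (SE; limma adjusted p = 0.0424 over 20561 probes), the 1 channel probe of 67 (1.49%) that passed, where 0.764% of all probes did. The probe numbered 30986 had -0.90, -0.91, -1.71 and -1.46 in sham and -1.10, -0.96, -0.25 and -1.37 in infarcted hearts. It overlapped and had the opposite sign, 0.32 ± 0.31 (adjusted p = 0.731). The mean of both gave -0.57 ± 0.23 (unadjusted p = 0.0353, adjusted p = 0.358), with groups of -1.12 to -0.40 and -1.51 to -1.14. The probe sequences were not used here, so where each binds the transcript is not given.

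Clcn4, an intracellular exchanger, had gene values of 1.68, 1.73, 3.23 and 1.32 in sham and 3.24, 2.73, 3.32 and 3.24 in infarcted hearts, a fold change of 1.14 ± 0.39 (unadjusted p = 0.0159, adjusted p = 0.264). Of its 2 probes the dimmer had values of 1.14, 0.29 and 0.61 on sham replicates 1, 2 and 4 and on no other array. The brighter probe, present on all 8 arrays, had 2.22, 3.17, 3.23 and 2.03 in sham hearts, so that 2 of them lay within the infarcted range. On that probe the fold change was 0.47 ± 0.32 (adjusted p = 0.615).

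**Figure D4:**
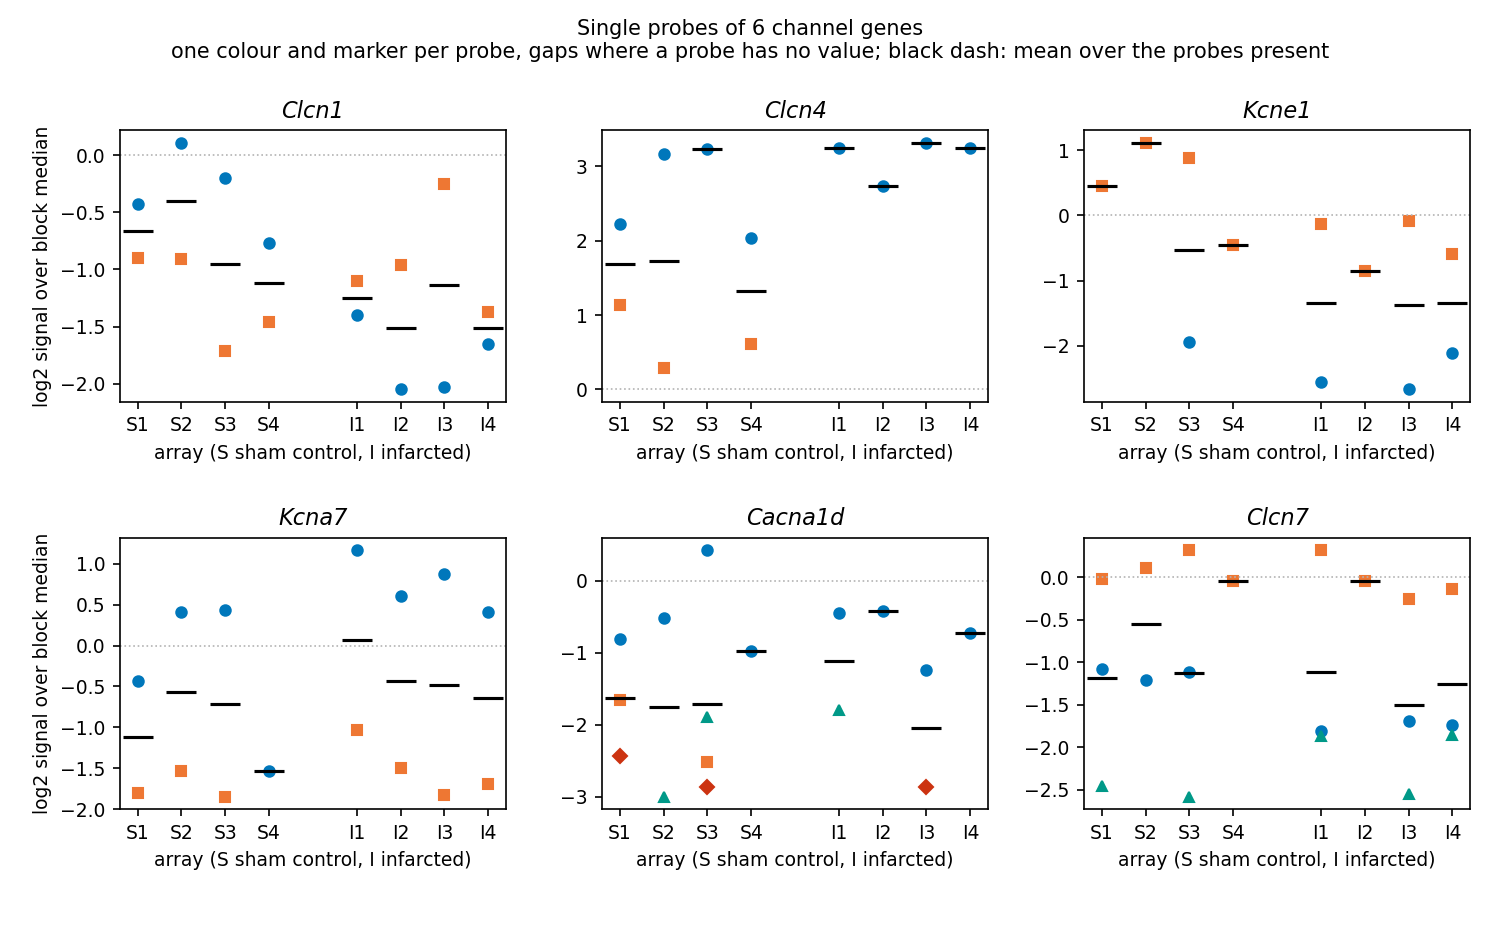
Log2 signal over the block median (vertical axis) of single probes of 6 channel genes on the sham control (S) and infarcted (I) arrays; each colour and marker is a probe and the black dash the mean over the probes present. The 2 probes of Clcn1 had fold changes of opposite sign (-1.46 and 0.32), and the means of Clcn4, Kcne1 and Cacna1d shifted with the arrays on which a dimmer probe had a value.

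Such mixing was common among channel genes with several probes. Of 61 tested genes 42 rested on 1 probe, and 19 had values from at least 2. In 16 of the 19 the set of probes with a value differed between arrays. Only 10 of those 16 had a probe complete on all arrays. Restricting them to complete probes moved the fold change by -0.68 for Cacna1d and -0.67 for Clcn4. It moved by -0.40 for Kcnj9 and -0.33 for Cacna1g, by 0.46 for Kcne1 and by 0.44 for Kcna7, and by at most 0.13 in size for the other 4. Over the 45 channel genes measured by complete probes alone, 0 were called, beside 0.726% of all 15158 features so measured. An unadjusted p under 0.05 was reached by 8 of the 45 (17.8%), beside 12.9% of those features, and the median fold change was -0.15, beside -0.06.

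The spread between hearts of 1 group was larger in sham than in infarcted hearts. Over the 47 channel genes with a value on all arrays, the median SD was 0.49 in sham and 0.40 in infarcted hearts, beside 0.44 and 0.32 over all features. Within the sham group the lowest value fell on replicate 2 for 20 of the 47 genes and on replicate 4 for 16, against 7 on replicate 1 and 4 on replicate 3. Over all features the shares of replicates 2 and 4 were 34.8% and 42.7%, so these arrays were low for other genes too. Both also had the fewest spots with a value, and levels are set against the median of the spots present. The part of that in the low values was not tested.

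Genes that work with these channels gave no calls either. Of 57 listed partners, pumps, calcium release channels, gap junction proteins and transcription factors, 40 were on the array with a single symbol. Of the 36 tested, 0 passed in either direction, where 0.549% of all 18044 features did. Fold changes were positive for 18 and negative for 18, with a median of 0.00. The smallest p belonged to Calm3, a calmodulin gene, at -1.89 ± 0.38 (adjusted p = 0.0658). Over its complete probes it had -0.43. Jph2, which holds the junction between the L-type channel and the calcium store, had 5.08, 4.76, 5.04 and 4.46 in sham and 4.19, 3.85, 3.24 and 3.46 in infarcted hearts. The groups did not overlap; the fold change was -1.15 ± 0.27 (adjusted p = 0.105), and -0.55 after quantile normalization. Dlg1, a scaffold that anchors potassium and sodium channels, had 0.73 ± 0.22 (adjusted p = 0.2), again without overlap.

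Heart muscle genes lay above the median spot wherever they had a value. Of 9 cardiomyocyte markers on the array each had a value on at least 3 arrays, and Tnnt2, Tnni3, Myl2, Myl3, Actc1, Pln and Atp2a2 stood at 4.96 or above wherever they had a value. Absent values were thus not confined to dim spots, and for several of these genes they fell mostly on sham arrays. Atp2a2 and Myl3 had no value on any sham array and stood at 6.64 to 7.20 on infarcted arrays. Tnni3 and Actc1 had a value on every infarcted array and, in the sham group, on replicate 4 alone. Tnnt2 and Myl2 lacked values in both groups. Why bright values were absent was not tested. Only Myh7, Pln and Ryr2 had enough values for the test, with 0 calls. Their fold changes were 1.79 (0.31 over complete probes), 0.27 and 0.02. The share of heart muscle RNA could therefore not be compared between the groups from these markers.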

How the data were processed

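The authors deposited 1 table of log2 values for 33600 spots on 8 arrays; the software, background correction and spot flags are not stated in the labels. Between 8781 and 13896 values per array were absent. Probes were named through the platform annotation supplied with the values: 18179 had 1 symbol, 87 several and 15334 were not listed. All 141 channel probes matched RefSeq's genes by identifier (GRCm38.p6, used for names only). Arrays were centred on their medians, probes of a gene were averaged on each array over those with a value, and features with at least 3 values per group were fitted with lmFit and eBayes of limma 3.58.1 (R 4.3.3), without covariates, then adjusted by Benjamini-Hochberg. The test design had foreseen log2 values, and the fit was checked on simulated data. Summaries used Python 3.11.15.

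Genes named are the 2 smallest p per class, a fixed set of 32 genes of cardiac currents (24 on the array, 22 tested), the 5 highest mean levels, and any called gene; Kcnmb1, Kcnj9, Kcnj14, Scn8a and Hcn3 were named after their values were seen, as were the probes discussed. The members and lists were chosen with earlier results of these data known. The labels name separate hearts and no array batch, so none could be examined. For arrays, their number limits the precision. Alternatives covered scaling, missing values, probe averaging, the variance model, the replicate block and leaving out each array.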

Additional observations from a re-analysis of the deposited data

Results flagged for a closer look

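Among 62 groups of 4 values of the named channel genes, 5 had 1 array set apart from the other 3, by the gap to its nearest value over the group's range (0.845 to 0.934). Chance flags about 1 in 20 groups. Cacna1c had 1.65 on infarcted replicate 2, beside 0.30 to 0.50 on the other infarcted arrays. Clcn4 had 2.73 on infarcted replicate 2, beside 3.24 to 3.32. Kcne1 had -0.85 on infarcted replicate 2, beside -1.38 to -1.34; on its complete probe the same array was the lowest infarcted value, and on the other arrays of that group a dimmer probe entered the mean. Cacna1d had -0.97 on sham control replicate 4, beside -1.75 to -1.63, where again only the brighter probe had a value. Cacna1g had -1.90 on sham control replicate 1, beside -0.41 to -0.15, where a second, dim probe entered the mean.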

How the results depend on the processing

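The count of 0 called channel genes held under every alternative that tested genes (quantile normalization, no centring, equal spread, loess, both other filters, complete probes, the intensity trend, the replicate block, and without each array in turn, 0 to 0 calls). With each probe tested alone it was 1, the Clcn1 probe. Over all features the calls ranged more widely, from 99 to 32 after quantile normalization, 48 with equal spread and 72 after loess. Without 1 array they ran from 3 (without infarcted replicate 3) to 615 (without sham control replicate 4). Pairing by replicate number was not evident across the arrays. Same-numbered deviations correlated at -0.193 to 0.311, and 1 of 4 sham and 1 of 4 infarcted arrays correlated best with their own number. Both were replicate 2, at 0.311. So few pairs cannot settle whether the arrays were paired. With the replicate block 0 channel genes and 1 feature were called. The class medians moved by less than the spread between arrays except for sodium pores (0.10), which held 2 genes instead of 3 under some settings: 0.53 with values on all 8 arrays, 0.58 over complete probes and -0.06 to 0.63 without 1 array. Smaller moves still turned the sign of other class medians. Without sham replicate 3, voltage-gated potassium pores went from -0.19 to 0.04, auxiliary calcium subunits from -0.17 to 0.11 and HCN from -0.03 to 0.15. Two-pore channels went from 0.02 to -0.18 without sham replicate 2. Calcium- and sodium-activated pores went from -0.32 to 0.05 without infarcted replicate 1.

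Signs turned for many genes, none with a called gene value. Of the 61 tested, 21 took both signs over the fits that left out 1 array. Among the genes described, other settings turned the sign of Cacna1d (-0.24 on complete probes or on its complete probe alone), the second Clcn1 probe (0.32), Cacna2d1 (0.12 quantile, 0.15 loess), Kcnip2 (0.16 quantile, 0.17 loess), Kcnj11 (0.14 quantile, 0.02 equal spread, 0.14 loess) and Kcnk2 (0.02 loess). Leaving out 1 array gave -0.15 to 0.04 for Cacna2d1, -0.45 to 0.12 for Clcn2, -0.22 to 0.15 for Hcn2, -0.25 to 0.19 for Kcna5, -0.79 to 0.04 for Kcnh2, -0.26 to 0.13 for Kcnip2, -0.26 to 0.20 for Kcnj11, -0.50 to 0.22 for Kcnj5, -0.42 to 0.08 for Kcnk2, -0.09 to 0.49 for Kcnk5, -0.21 to 0.21 for Kcnj9 (0.02 quantile) and -0.06 to 0.29 for Scn8a; the cause was not tested.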
